A study of Mus musculus with 9 samples.

Results

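Libraries 7, 8 and 9 of a 9-library RNA sequencing series on a mouse mammary tumour line were compared with libraries 4, 5 and 6, so 6 of the 9 libraries entered the comparison. The sets were chosen by the running number in the sample titles, and they were paired by position, 7 with 4, 8 with 5 and 9 with 6. All 9 libraries came from D2.0R cells (also written D2.OR), a line from a mammary gland adenocarcinoma that is used as a model of dormant metastasis. Before sorting, they took up the dye CellTrace Far Red and grew for 1 week in DMEM with 2% fetal bovine serum, and flow cytometry then separated them by how much dye they held. Each library had the same medium, serum and dye, and the sources used here name no other agent, genotype or host.

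The labels do not say which sorted cells went into which library. All 9 carry the same description, which lists dye-positive (CTFRpos), bulk and dye-negative (CTFRneg) samples numbered 1 to 3. If the titles follow the order of that list, libraries 7 to 9 are dye-poor cells and libraries 4 to 6 are bulk cells. That assignment is inferred from order alone, so the sets are called by their numbers here. Nothing in the labels says that the libraries of a set came from separate cultures. The p-values of the paired fits below are set only against the spread of the differences within these pairs, which may be technical.

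CellTrace Far Red binds covalently to proteins inside the cell, and each division shares the dye between the daughters, so that cells which keep dividing become dim while cells that stop stay bright. Passing from rest into division involves ordered gene programmes. E2F factors, held back by the retinoblastoma family in resting cells, switch on genes for DNA replication, and B-MYB, FOXM1 and the DREAM complex control a later set for mitosis.

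The 6 libraries held between 18732737 (library 9) and 41243036 (library 7) estimated counts. Between 13095 and 14318 genes per library had at least 10 counts, and mitochondrially encoded genes took 1.37% to 2.05% of the counts. Values are given as CPM, a gene's counts relative to the size of its library, which was scaled with trimmed-mean (TMM) factors. They are not divided by gene length, so they compare libraries and not genes. Log2 fold changes are libraries 7 to 9 over libraries 4 to 6 within pairs, from edgeR's quasi-likelihood test with pair as a block. A gene is called higher or lower where its p, adjusted by Benjamini and Hochberg over all 14047 genes tested, was under 0.05.

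The main division among these libraries was not between the sets. The first principal component, with 57.4% of the variance, placed libraries 5 and 8 at 49.1 and 47.3 and the other 4 between -28.8 and -21.7. The second, with 17.0%, separated the sets, with libraries 4 to 6 at -26.3, -11.0 and -12.4 and libraries 7 to 9 at 5.78, 14.4 and 29.6. Deviations from the set means correlated at 0.64 (libraries 4 and 7), 0.82 (5 and 8) and 0.60 (6 and 9) across genes.

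**Figure D1:**
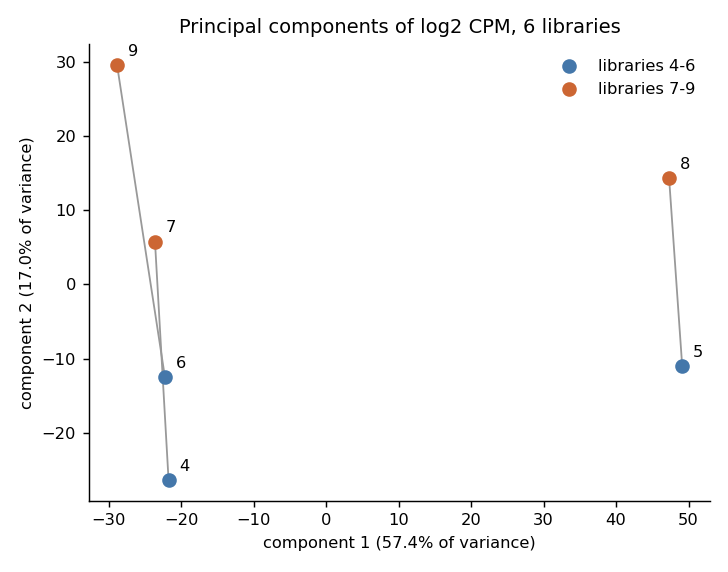
Principal components of log2 CPM in the 6 libraries, with the first component on the x axis and the second on the y axis, each with its share of the variance, and lines joining the pairs. Libraries 5 and 8 stand apart on the first component (49.1 and 47.3 against -28.8 to -21.7), while each line runs upward along the second from the 4-6 member to the 7-9 member.

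Within pairs, 724 of 14047 genes (5.15%) were higher in libraries 7 to 9 and 739 (5.26%) were lower, 1463 in all (10.4%). Most differences were small: the median absolute log2 fold change was 0.38 among the called genes and 0.12 among all genes tested. At least 2-fold differences were called for 64 higher genes (0.456%) and 122 lower genes (0.869%). All 724 genes called higher were higher in every pair, as were 3504 of all genes tested (24.9%). Of the 739 genes called lower, 737 were lower in every pair, against 3313 of all genes (23.6%). The paired fit favours genes that keep 1 direction in every pair, so this agreement is no separate support for the calls. The sets did not overlap for 207 of the genes called higher and 299 of those called lower; over all genes these counts were 540 (3.84%) above and 659 (4.69%) below.

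The calls rest on the pairing. Without the pair as a block edgeR called 0 genes, the smallest adjusted p was 0.359, and 495 genes had an unadjusted p under 0.05. DESeq2 without the block called 12 higher and 44 lower. With the block, leaving out 1 pair at a time gave 443 to 657 higher and 506 to 739 lower, the lowest of both without libraries 4 and 7.

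**Figure D2:**
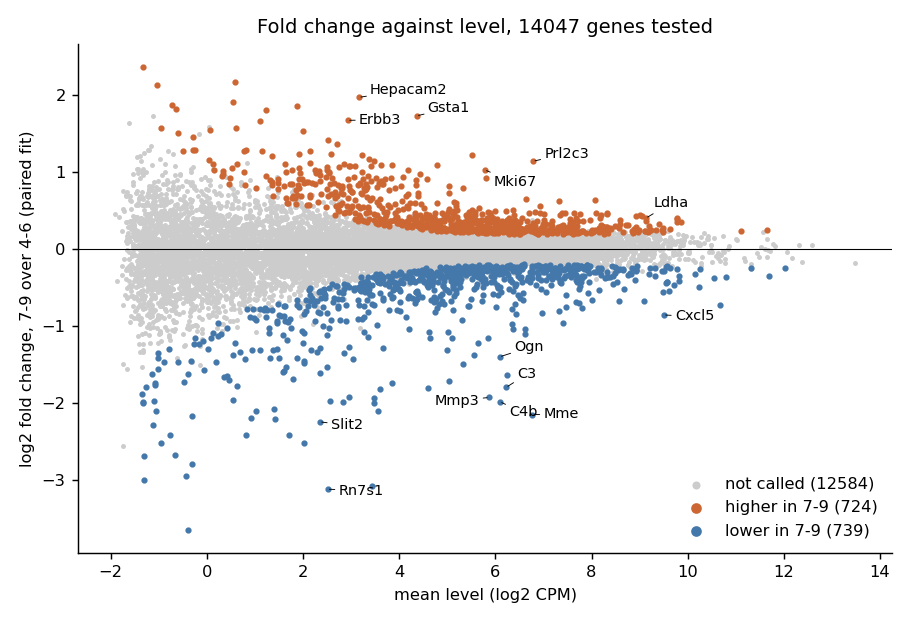
Log2 fold change of libraries 7-9 over 4-6 (y axis, paired fit) against mean level in log2 CPM (x axis) for 14047 genes. Orange points are the 724 genes called higher, blue points the 739 called lower and grey points the genes not called; some genes are named, from Hepacam2 at 1.97 to Rn7s1 at -3.12.

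Hepacam2, an adhesion protein of the immunoglobulin superfamily, had the largest rise among genes called with a mean of at least 5 CPM. Its gene lies at chr6:3457096-3498298 (GRCm38, GENCODE M21, as for the positions of genes below). It had 2.23, 3.602 and 5.49 CPM in libraries 4, 5 and 6 and 9.06, 15.9 and 19. CPM in libraries 7, 8 and 9. Every library of 7 to 9 was above every library of 4 to 6, by 3.93, 4.31 and 3.42 fold in the 3 pairs (0.1 CPM added to both levels), and the log2 fold change was 1.97 ± 0.12 (SE, adjusted p = 8.73e-06). Gsta1 (chr9:78230656-78242684), a glutathione transferase that conjugates electrophiles, had 11.9, 5.02 and 11.96 CPM in libraries 4, 5 and 6 and 37.1, 15.9 and 43.97 CPM in libraries 7, 8 and 9. It was lowest in libraries 5 and 8 within their sets, yet the sets did not overlap, and its log2 fold change was 1.73 ± 0.082 (SE, adjusted p = 2.62e-06). Erbb3, the receptor that binds neuregulins and signals through ERBB2, had 2.13, 4.12 and 4.91 CPM in libraries 4, 5 and 6 and 9.19, 13.6 and 11.8 CPM in libraries 7, 8 and 9, without overlap, and a log2 fold change of 1.67 ± 0.15 (SE, adjusted p = 1.77e-04). In bulk RNA, more RNA per cell and more cells expressing a gene cannot be told apart, here or for any gene below.

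Other rises of this size were in Car6, a secreted carbonic anhydrase (log2 1.42, adjusted p = 0.00138), and Etl4 (log2 1.24, adjusted p = 6.04e-04). Prl2c3, a proliferin of the prolactin family, had 82.8, 30.4 and 95.8 CPM in libraries 4, 5 and 6 and 177, 69.5 and 212 CPM in libraries 7, 8 and 9, and its log2 fold change was 1.14 ± 0.056 (SE, adjusted p = 2.62e-06). Its sets overlapped because library 8 was below libraries 4 and 6, although it was higher in 7 to 9 within each pair. Prl2c3 has near-identical relatives, and Pgk1-rs7 (log2 1.22) resembles Pgk1, so the division of reads among such copies makes both values uncertain. The remaining 5 of the 12 largest rises, Nuf2, Ccnb2, Ckap2l, Hmmr and Pimreg, are genes of mitosis. Nuf2 was not called without libraries 6 and 9 (adjusted p = 0.0573; the settings with the block gave 5.56e-19 to 0.0573).

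Genes of G2 and mitosis were the list with the largest share of rises. Of 36 tested, 32 were higher and 0 lower (5.15% and 5.26% of all genes tested), with a median log2 fold change of 0.89 against 0.00 for all genes tested. The list median was 1.21, 0.46 and 1.18 in the pairs 7 over 4, 8 over 5 and 9 over 6. The number higher was 28, 32 and 20 without libraries 4 and 7, 5 and 8, and 6 and 9 in turn. The members not called were Cdk1, Bub3, Spc25 and Cdc25c, at log2 0.28, 0.058, 0.55 and 0.56.

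Mki67 (chr7:135689784-135716361), the proliferation antigen Ki-67 that coats mitotic chromosomes, had 9.75, 106 and 9.199 CPM in libraries 4, 5 and 6 and 27.98, 150.3 and 23.9 CPM in libraries 7, 8 and 9. Libraries 5 and 8 held several times the level of the other 4, so the sets overlapped, but Mki67 was higher in 7 to 9 within each pair, by 2.85, 1.42 and 2.58 fold. Its log2 fold change was 1.03 ± 0.16 (SE, adjusted p = 0.00343). Top2a, the topoisomerase that untangles sister chromatids, had 18.8, 96.3 and 11.7 CPM in libraries 4, 5 and 6 and 37.5, 132 and 34.5 CPM in libraries 7, 8 and 9 and a log2 fold change of 0.93 ± 0.15 (SE, adjusted p = 0.00427). Ccnb2, a B-type cyclin that partners CDK1, had 2.496, 14.1 and 1.01 CPM in libraries 4, 5 and 6 and 6.33, 26.1 and 3.96 CPM in libraries 7, 8 and 9, in the same order of libraries within each set as Top2a, and a log2 fold change of 1.22 ± 0.16 (SE, adjusted p = 0.00159). The spindle checkpoint and anaphase genes Bub1b and Cdc20 and the centromeric histone Cenpa rose by log2 0.79, 0.88 and 0.91.

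The CCAAT box, bound by NF-Y, is a known feature of promoters of mitotic genes, so stretches just upstream of Top2a, Ccnb2 and Cdc20 are shown, with one from the replication gene Mcm6, shown for its E2F letters. They are the 120 bases before each start in RefSeq on GRCm38.p6, all from the minus strand, at chr11:99024190-99024309 (Top2a), chr9:70421555-70421674 (Ccnb2), chr4:118437344-118437463 (Cdc20) and chr1:128359706-128359825 (Mcm6). Capitals mark CCAAT on either strand (CCAAT or ATTGG) in the first 3, and the E2F letters on either strand in Mcm6, where a run of 12 capitals is a pair of overlapping matches. CCAAT letters (as ATTGG) also stand in the Mcm6 stretch and are left in lower case.
Top2a: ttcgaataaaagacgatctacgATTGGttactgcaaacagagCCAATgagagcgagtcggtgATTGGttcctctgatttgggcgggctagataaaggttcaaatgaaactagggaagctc
Ccnb2: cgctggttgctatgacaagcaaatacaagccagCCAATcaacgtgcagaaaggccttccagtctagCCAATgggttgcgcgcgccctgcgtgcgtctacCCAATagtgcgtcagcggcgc
Cdc20: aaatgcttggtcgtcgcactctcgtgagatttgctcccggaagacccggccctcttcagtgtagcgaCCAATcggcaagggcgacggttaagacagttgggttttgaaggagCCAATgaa
Mcm6: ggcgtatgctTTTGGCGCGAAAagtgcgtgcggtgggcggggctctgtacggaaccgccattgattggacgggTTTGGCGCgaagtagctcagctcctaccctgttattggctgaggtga

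In the 250 bases before the start, on both strands, CCAAT was found in 22 of the 29 mitosis genes with a RefSeq promoter (75.86%), against 37.49% of 27025 genes and 41.0% of the 10074 matched genes that were tested. E2F letters (TTTCCCGC, TTTGGCGC, TTTCGCGC or TTTGCCGC) were in 1 of the 29 mitosis genes and in 8 of 29 replication genes (27.59%), against 2.157% of all promoters and 3.971% of those tested. The letters TTTGAA, the core of the CHR element that the DREAM complex and B-MYB use, were in 10 of the 29 mitosis genes (34.48%), against 18.26% of all and 12.7% of those tested. CCAAT was in 18 of the 29 replication genes (62.07%). A match of letters is a description and not a bound site.

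Among genes of DNA replication, 17 of 36 were higher and 0 lower (5.15% and 5.26% of all genes tested), with a median of 0.34. Pair medians were 0.47, 0.32 and 0.30, and the number higher was 11, 19 and 15 without each pair in turn. Mcm5, a subunit of the MCM helicase that unwinds origins, had 7.98, 39. and 5.27 CPM in libraries 4, 5 and 6 and 19.1, 57.8 and 11.2 CPM in libraries 7, 8 and 9. It was higher in 7 to 9 within each pair while the sets overlapped, and its log2 fold change was 0.91 ± 0.12 (SE, adjusted p = 0.00158). The helicase subunits Mcm6 and Mcm4 rose by log2 0.69 and 0.46, and Rrm2, the small subunit of ribonucleotide reductase, by 1.09. Mcm2, at log2 0.28 (adjusted p = 0.0177), lost its call without libraries 4 and 7 (adjusted p = 0.115; settings with the block 4.64e-04 to 0.115).

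The replication-dependent histones, whose transcripts mostly lack a poly(A) tail, were lower more often than higher. Their median was -0.56, with -0.48, -0.70 and -0.54 in the pairs 7 over 4, 8 over 5 and 9 over 6. Over all genes tested 5.26% were lower and 5.15% higher. Of 7 tested from 15 listed 1 was higher, Hist1h2ap, which lost its call without libraries 4 and 7 (adjusted p = 0.0575; 1.22e-04 to 0.0935 over the settings with the block), and 3 were lower, H2bc4, H1f2 and H4c9. H2bc4 had 36.8, 31.7 and 34.9 CPM in libraries 4, 5 and 6 and 22.2, 17.3 and 21.9 CPM in libraries 7, 8 and 9, without overlap, and a log2 fold change of -0.76 ± 0.070 (SE, adjusted p = 1.77e-04). The libraries were made from poly(A) RNA, so these values count only histone RNA that carried a tail.

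Of 25 G1 cyclins, retinoblastoma and E2F genes 3 were higher and 1 lower (5.15% and 5.26% of all genes tested). The median was 0.15. Without each pair in turn 2, 4 and 1 were higher and 0, 0 and 0 lower, and in a fit of all 9 libraries 0 were called. Ccnd1, the cyclin that couples mitogens to CDK4, had 144, 240.4 and 93.5 CPM in libraries 4, 5 and 6 and 178, 236 and 127 CPM in libraries 7, 8 and 9, and it was not called (log2 0.23 ± 0.082 SE, adjusted p = 0.102). Myc, a transcription factor of growth genes, had a log2 fold change of 0.0068 ± 0.075 (SE, adjusted p = 0.966) and took the other sign in 4 alternatives.

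CDK inhibitors and genes of quiescence were lower more often than higher. Of 31 tested from 32 listed 10 were lower and 1 higher (5.26% and 5.15% of all genes tested), with a median of -0.11; the number lower was 7, 9 and 7 without each pair in turn and 6 in a fit of all 9 libraries. The member called higher was Cdkn3, a phosphatase that acts on CDK1 and CDK2 (log2 1.11, adjusted p = 0.0417; 0.12, 0.0431 and 0.10 without each pair in turn, 0.00355 to 0.1303 over the settings with the block). The classical inhibitors were not among the falls. Cdkn1a, which encodes p21, had 12.9, 3.77 and 17.7 CPM in libraries 4, 5 and 6 and 14.3, 5.09 and 22.4 CPM in libraries 7, 8 and 9 and a log2 fold change of 0.29 ± 0.095 (SE, adjusted p = 0.0848), Cdkn1b (p27) stood at log2 -0.11 (adjusted p = 0.274), and Cdkn1c (p57) had 0 counts in all 9 libraries. Gas6, the ligand of the AXL, TYRO3 and MERTK receptors and a gene named for growth arrest, had 41.1, 38.9 and 21.4 CPM in libraries 4, 5 and 6 and 13.7, 21.99 and 10.5 CPM in libraries 7, 8 and 9. It was lower in 7 to 9 within each pair, and its log2 fold change was -1.15 ± 0.13 (SE, adjusted p = 5.19e-04). Gas1, a membrane protein named for the same state, fell by 0.68 on the log2 scale, and Klf9, a Krüppel-like repressor, by 0.43. Of 23 p53 targets 1 was higher and 1 lower, shares near those of all genes tested; the lower one was called only without libraries 5 and 8 among the pairs left out.

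**Figure D3:**
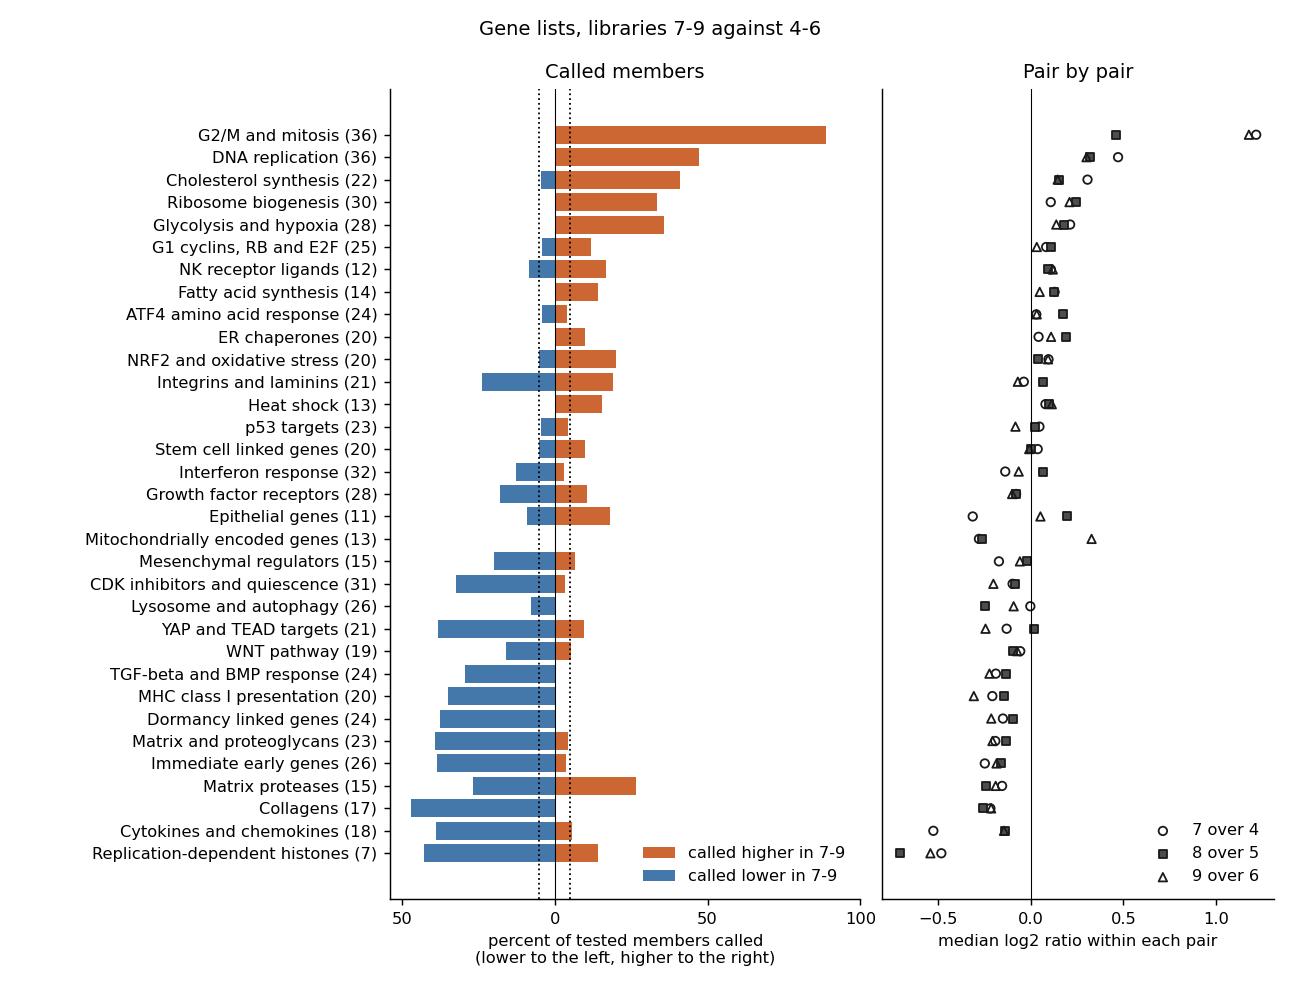
Gene lists, with the number tested in brackets: on the left, the percent of members called lower (blue, to the left) and higher (orange, to the right), with dotted lines at 5.15% higher and 5.26% lower for all genes tested; on the right, the median log2 ratio in each pair. Mitosis and replication lists lie far to the right, and replication-dependent histones, collagens, cytokines and immediate early genes to the left.

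Growth metabolism leaned towards libraries 7 to 9 by small amounts. Of 28 glycolysis and hypoxia genes 10 were higher and 0 lower (5.15% and 5.26% of all genes tested). The median was 0.19, and 7, 9 and 13 were higher without each pair in turn. Ldha, the lactate dehydrogenase subunit that turns pyruvate to lactate, had 543, 479 and 429 CPM in libraries 4, 5 and 6 and 725, 651 and 547 CPM in libraries 7, 8 and 9. The sets did not overlap, and the log2 fold change was 0.40 ± 0.059 (SE, adjusted p = 0.002496). Pgk1, the kinase of an ATP-making step of glycolysis, rose by log2 0.43, and Ero1l, an oxidase of the endoplasmic reticulum that hypoxia induces, by 0.44. The hypoxia targets Car9 and Vegfa were not called, at log2 0.16 and 0.092.

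Of 30 ribosome biogenesis genes 10 were higher and 0 lower (median 0.19), but 6, 7 and 6 without each pair in turn. Dkc1, the pseudouridine synthase of box H/ACA particles, rose by log2 0.44, and Ncl, nucleolin, by 0.35. Of 22 cholesterol synthesis genes 9 were higher and 1 lower (median 0.21), and 3, 10 and 9 were higher without each pair in turn; the fewest were without libraries 4 and 7. Dhcr7 and Cyp51, enzymes of the late steps, rose by log2 0.40 and 0.46. Fatty acid synthesis (2 of 14 higher), endoplasmic reticulum chaperones (2 of 20) and heat shock genes (2 of 13) had 0 lower. Over all genes tested 5.15% were higher and 5.26% lower. Without each pair in turn the numbers higher in these lists were 0, 1 and 2, then 0, 0 and 2, then 1, 1 and 1. Among 24 genes of the ATF4 amino acid response 1 was higher (2, 1 and 4 without each pair in turn) and 1 lower, again near the shares of all genes, and Trib3, a pseudokinase target of ATF4, stood at log2 0.12 (adjusted p = 0.354).

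NRF2, the regulator of antioxidant genes, has targets on a list of 20. Of the 20 genes 4 were higher and 1 lower (5.15% and 5.26% of all genes tested). The number higher was 3, 5 and 2 without each pair in turn and 2 in the fit of all 9. Nqo1, a quinone reductase, had 66.3, 57.9 and 61.1 CPM in libraries 4, 5 and 6 and 97.7, 73.1 and 92.8 CPM in libraries 7, 8 and 9. The sets did not overlap, with a log2 fold change of 0.50 ± 0.065 (SE, adjusted p = 0.00144). Gsta4, a glutathione transferase for lipid aldehydes, rose by log2 0.64. The member called lower was Fth1 (log2 -0.24, adjusted p = 0.0439). Fth1 was not called without libraries 4 and 7 (adjusted p = 0.282), without 5 and 8 (0.233) or in the fit of all 9.

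The 12 largest falls, chosen by the same rule as the rises, ran from log2 -3.12 (Rn7s1) to -1.83 (Rspo3). Mme (chr3:63241537-63386030), neprilysin, is a membrane peptidase that cleaves small peptides. It had 215, 199 and 119 CPM in libraries 4, 5 and 6 and 37.9, 54.97 and 27.8 CPM in libraries 7, 8 and 9. All 3 libraries of 7 to 9 were below all of 4 to 6, at 0.177, 0.277 and 0.235 times the paired level, and the log2 fold change was -2.15 ± 0.10 (SE, adjusted p = 2.62e-06). Slit2, a secreted ligand of ROBO receptors, had 11.2, 8.66 and 4.998 CPM in libraries 4, 5 and 6 and 2.34, 1.84 and 1.03 CPM in libraries 7, 8 and 9, without overlap (log2 -2.25 ± 0.14 SE, adjusted p = 1.17e-05). C4b (chr17:34728380-34743882), complement component 4, had 131, 91.6 and 104 CPM in libraries 4, 5 and 6 and 27.4, 21.8 and 34.3 CPM in libraries 7, 8 and 9, also without overlap (log2 -1.99 ± 0.10 SE, adjusted p = 4.36e-06). C4a, its near-identical neighbour, stood at log2 -1.98, and reads of these copies may be split between them.

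Mmp3, stromelysin 1, a protease of matrix proteins, had 90.8, 105 and 77.5 CPM in libraries 4, 5 and 6 and 17.3, 39.9 and 18.2 CPM in libraries 7, 8 and 9. Library 8 was the highest of its set and still below all of 4 to 6, and the log2 fold change was -1.93 ± 0.15 (SE, adjusted p = 5.69e-05). Acp5, tartrate-resistant acid phosphatase, fell by 2.10 on the log2 scale, Atp10d, a lipid flippase, by 2.01, and the plexin domain protein Plxdc2 by 1.94. Tnfrsf11b, osteoprotegerin, the decoy receptor for RANKL, fell by 1.93, Rspo3, an R-spondin that raises WNT signalling, by 1.83, and the neutrophil chemokine Cxcl3 by 1.99. For all 6 of these, libraries 7 to 9 lay below libraries 4 to 6. Rn7s1, a signal recognition particle RNA without a poly(A) tail and with many copies, had 9.79, 13.3 and 6.102 CPM in libraries 4, 5 and 6 and 4.11, 0 and 0 CPM in libraries 7, 8 and 9, and its log2 fold change of -3.12 (adjusted p = 0.0253) is uncertain because libraries 8 and 9 were at 0. It was not called without libraries 6 and 9 (adjusted p = 0.0938) or in the fit of all 9 (adjusted p = 0.2398, the highest of any setting with the block).

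Matrix genes were lower far more often than higher. Of 17 collagens 8 were lower and 0 higher (5.26% and 5.15% of all genes tested). The median was -0.24, and 4, 6 and 7 were lower without each pair in turn. Col7a1, the collagen of anchoring fibrils, fell by 0.64 on the log2 scale, and Col12a1, a fibril-associated collagen, by 0.43. The chains of type I collagen were not called, with Col1a1 at log2 0.13 and Col1a2 at -0.12. Col3a1, the chain of type III collagen, fell by 0.46 on the log2 scale (adjusted p = 0.0115) but was not called in the fit of all 9 (adjusted p = 0.234, the highest of the settings with the block, the lowest being 4.47e-11). Of 23 matrix proteins and proteoglycans 9 were lower and 1 higher (median -0.18), with 7, 4 and 6 lower without each pair in turn and 5 in the fit of all 9. Ogn, osteoglycin, a small leucine-rich proteoglycan, had 69.9, 188 and 26.9 CPM in libraries 4, 5 and 6 and 21.8, 92.5 and 8.36 CPM in libraries 7, 8 and 9. It was lower in 7 to 9 in each pair although the sets overlapped, with a log2 fold change of -1.40 ± 0.12 (SE, adjusted p = 1.10e-04). Aspn, asporin, of the same family, fell by 1.69 on the log2 scale. Its levels were 1.77, 13.7 and 0.123 CPM in libraries 4, 5 and 6 and 0.542, 4.07 and 0.109 CPM in libraries 7, 8 and 9. Libraries 6 and 9 thus held very little of it and hardly differed, at a ratio of 0.94 with 0.1 CPM added to both. The member called higher was Timp1, an inhibitor of matrix metalloproteinases (log2 0.37, adjusted p = 0.00693).

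Proteases of the matrix moved both ways, 4 of 15 higher and 4 lower (3 and 2 in the fit of all 9). Over all genes tested 5.15% were higher and 5.26% lower. Mmp9, gelatinase B, which degrades basement membrane collagen, had 0.952, 2.32 and 1.07 CPM in libraries 4, 5 and 6 and 3.79, 9.58 and 2.88 CPM in libraries 7, 8 and 9. It rose while Mmp3 fell, without overlap, at log2 1.86 ± 0.19 (SE, adjusted p = 3.15e-04). Among 21 integrins and laminins, against the same shares, 4 were higher (2 in the fit of all 9) and 5 lower (4, 3 and 5 without each pair in turn). Itga11, a receptor for fibrillar collagen, fell by 1.08 on the log2 scale, while Itgb3, the beta chain of a vitronectin receptor, rose by 0.54. Itgb4, the integrin chain of hemidesmosomes, rose by log2 1.12.

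**Figure D4:**
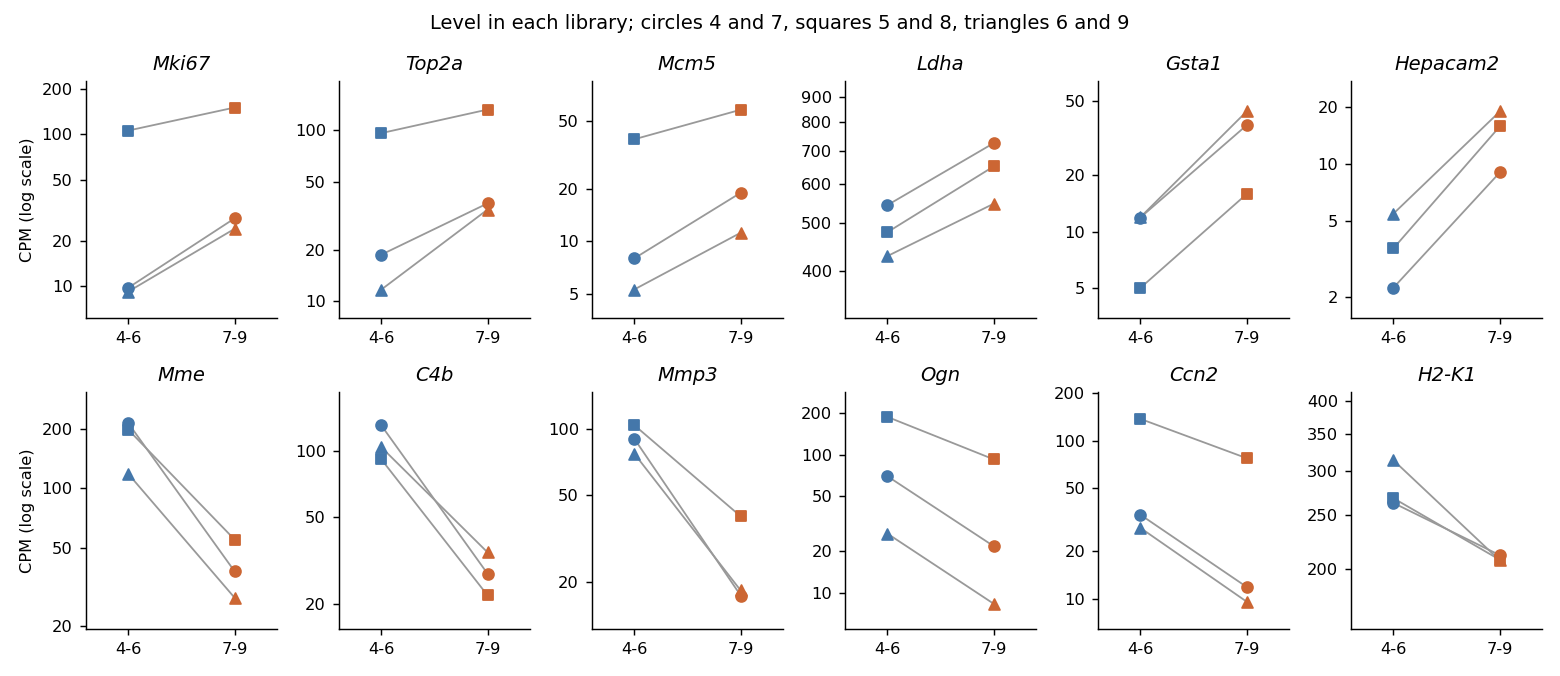
Level of 12 genes in CPM (y axes, log scale) in libraries 4-6 (blue) and 7-9 (orange), with a line for each pair and a marker for each position. For Mki67 and Top2a the lines rise from different levels, with squares (5 and 8) on top, while for Mme, C4b and Mmp3 all 3 blue points lie above all 3 orange points.

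Signalling targets of the matrix and of mechanical state were lower more often than higher. Shares over all genes tested were 5.26% lower and 5.15% higher. Of 21 YAP and TEAD targets 8 were lower and 2 higher (median -0.12). The number lower was 4, 7 and 5 without each pair in turn and 2 in the fit of all 9. Pair medians differed in sign, at -0.13, 0.018 and -0.24 for 7 over 4, 8 over 5 and 9 over 6. Ccn2, connective tissue growth factor, had 34.02, 138 and 28.1 CPM in libraries 4, 5 and 6 and 11.8, 77.5 and 9.55 CPM in libraries 7, 8 and 9. It was lower in 7 to 9 in each pair, with a log2 fold change of -1.23 ± 0.13 (SE, adjusted p = 3.30e-04). Dock5, an activator of Rac, went the other way, at log2 0.50. Of 24 genes of the TGF-beta and BMP response 7 were lower and 0 higher (median -0.16; 6, 5 and 7 lower without each pair in turn). They included Tgfbr3, the betaglycan co-receptor, at log2 -0.42, Id3, an inhibitor of bHLH factors, at -0.42, and the inhibitory Smad6 at -0.40.

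Of 19 genes of the WNT pathway 3 were lower (5, 3 and 5 without each pair in turn) and 1 higher. Over all genes tested 5.26% were lower and 5.15% higher. The receptor ligase Rnf43 stood at log2 -1.47, the ligand Wnt5b at -1.34 and the co-receptor Lrp5 at -0.36. Levels of Rnf43 were low, with 1.84, 1.84 and 1.07 CPM in libraries 4, 5 and 6 and 0.542, 0.743 and 0.434 in 7, 8 and 9. Those of Wnt5b were low as well, with 1.48, 4.09 and 1.13 CPM and 0.763, 1.32 and 0.434 in the same libraries. Of 28 growth factor receptors and ligands 3 were higher, Erbb3 among them, and 5 were lower (5.15% and 5.26% of all genes tested). Without each pair in turn 3, 5 and 2 were higher and 4, 6 and 4 lower, and 3 were lower in the fit of all 9. Pdgfra, a receptor for PDGF, fell by 0.52 on the log2 scale, and the ligand Fgf2 by 0.43.

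Immediate early genes, which growth factors and stress induce within minutes, were lower in 10 of 26 cases and higher in 1 (median -0.21). Shares over all genes tested were 5.26% lower and 5.15% higher. The number lower was 8, 11 and 10 without each pair in turn and 5 in the fit of all 9. Dusp1, a phosphatase of MAP kinases, had 194, 199 and 165 CPM in libraries 4, 5 and 6 and 139.8, 148 and 128 CPM in libraries 7, 8 and 9, without overlap, at log2 -0.42 ± 0.055 (SE, adjusted p = 0.00145). Phlda1 fell by 0.55 on the log2 scale.

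Of 18 cytokines, chemokines and related secreted proteins 7 were lower and 1 higher (5.26% and 5.15% of all genes tested). The median was -0.31, and 5, 7 and 7 were lower without each pair in turn. Lcn2, lipocalin 2, a siderophore-binding protein, had 93.4, 57.04 and 88.1 CPM in libraries 4, 5 and 6 and 35.98, 31.3 and 37.4 CPM in libraries 7, 8 and 9. Again there was no overlap, and the log2 fold change was -1.16 ± 0.088 (SE, adjusted p = 5.28e-05). Cxcl5, a chemokine for neutrophils, had 890.4, 997 and 903 CPM in libraries 4, 5 and 6 and 387, 651 and 534 CPM in libraries 7, 8 and 9, without overlap, at log2 -0.86 ± 0.098 (SE, adjusted p = 6.88e-04). Cx3cl1, fractalkine, fell by 0.97 on the log2 scale. Ccl5, a chemokine for T cells, was the member called higher (log2 0.90, adjusted p = 0.01195), the 1 rise in the list.

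The title of the series names natural killer cell regulation, and genes that such cells read on a target were therefore listed. Of 20 genes of MHC class I presentation 7 were lower and 0 higher (median -0.17; 5, 6 and 5 lower without each pair in turn). H2-K1, a classical class I heavy chain, had 263, 268 and 313 CPM in libraries 4, 5 and 6 and 212, 208 and 207 CPM in libraries 7, 8 and 9. The sets did not overlap, and the log2 fold change was -0.43 ± 0.067 (SE, adjusted p = 0.00373). H2-D1, the other classical heavy chain measured, fell by 0.33 on the log2 scale and the peptide transporter subunit Tap2 by 0.35, while the light chain B2m was not called (log2 -0.18, adjusted p = 0.0997). Class I genes share long stretches, so their split is uncertain. A list of natural killer receptor ligands and death receptors had 12 members tested. Of these 2 were higher and 1 lower, against 5.15% and 5.26% of all genes tested. The 3 were the death receptors Tnfrsf10b and Fas and the adhesion protein Cdh1, E-cadherin, which binds the inhibitory receptor KLRG1. Ulbp1, a ligand of the activating receptor NKG2D, had 3.65, 16.4 and 2.85 CPM in libraries 4, 5 and 6 and 5.0, 17.5 and 4.13 CPM in libraries 7, 8 and 9 and was not called (log2 0.31 ± 0.12 SE, adjusted p = 0.151). Tnfrsf10b, the TRAIL receptor, rose by log2 0.29. Fas was called lower (log2 -0.48, adjusted p = 0.0343) but not without libraries 4 and 7 (adjusted p = 0.145), without 6 and 9 (0.08898) or in DESeq2, over settings from 7.55e-04 to 0.145. Cdh1 was called higher (log2 0.54, adjusted p = 0.0142) but not without libraries 4 and 7 (adjusted p = 0.0737), without 6 and 9 (0.0552) or in the fit of all 9, over settings from 4.06e-05 to 0.0737. Of 32 interferon response genes 4 were lower and 1 higher (5.26% and 5.15% of all genes tested), with a median of -0.05. Without each pair in turn 0, 3 and 2 were lower and 1, 0 and 0 higher, and in the fit of all 9 1 was lower.

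Genes linked to dormancy of disseminated tumour cells were lower in 9 of 24 cases and higher in 0 (median -0.17; 8, 6 and 7 lower without each pair in turn and 5 in the fit of all 9). The list shares Gas6 and Dusp1 with those above. Nr2f1, an orphan nuclear receptor, had 13.4, 16.4 and 9.84 CPM in libraries 4, 5 and 6 and 6.99, 10.2 and 7.06 CPM in libraries 7, 8 and 9 and a log2 fold change of -0.72 ± 0.11 (SE, adjusted p = 0.00296). Of 20 genes linked to stem cells 2 were higher and 1 lower, against 5.15% and 5.26% of all genes tested; 1, 3 and 2 were higher and 0, 1 and 1 lower without each pair in turn. Aldh1a3, a retinaldehyde dehydrogenase, had 7.32, 9.004 and 7.64 CPM in libraries 4, 5 and 6 and 13.9, 14.9 and 16.7 CPM in libraries 7, 8 and 9, without overlap, at log2 0.92 ± 0.10 (SE, adjusted p = 5.73e-04). Sox2 (19.8, 26.4 and 20.8 against 16.8, 26.6 and 17.7 CPM, log2 -0.15), Bach1 (61.4, 64.7 and 72.8 against 64.8, 62.2 and 70.5 CPM, log2 -0.0076) and Klf4 (40.7, 10.3 and 32.01 against 50.3, 14.4 and 33.3 CPM, log2 0.27), transcription factors on that list, were not called, and the efflux pump Abcg2 stood at log2 -0.057. The signs of Bach1 and Abcg2 changed in 4 and 3 alternatives.

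Of 15 mesenchymal regulators 3 were lower and 1 higher, against 5.26% and 5.15% of all genes tested; 3, 3 and 2 were lower and 2, 1 and 1 higher without each pair in turn. Zeb1, a repressor of epithelial genes, had 1.67, 2.56 and 1.53 CPM in libraries 4, 5 and 6 and 0.542, 0.963 and 0.326 CPM in libraries 7, 8 and 9, without overlap, at log2 -1.65 ± 0.26 (SE, adjusted p = 0.00364), and Twist2 fell by 0.73 on the log2 scale. Vim, vimentin, had 3774, 5846 and 4701 CPM in libraries 4, 5 and 6 and 3481, 5772 and 4094 CPM in libraries 7, 8 and 9 and was not called (log2 -0.11). Of 11 epithelial genes tested from 21 listed 2 were higher and 1 lower, against 5.15% and 5.26% of all genes tested. Without each pair in turn 1, 2 and 1 were higher and 1, 3 and 1 lower. Krt8, a keratin of simple epithelia, rose by log2 0.46, and the desmosomal gene Dsp fell by 0.70.

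Markers of other cell types were checked in the same libraries, where 5.15% of all genes tested were higher and 5.26% lower. Of 13 natural killer and T cell markers 3 were high enough to test and 0 were called, with summed levels of 5.01 to 6.52 CPM in libraries 4 to 6 and 5.75 to 7.93 in 7 to 9; Ncr1, Klrk1, Klrd1, Gzma and Nkg7 had 0 counts. For 11 myeloid markers, 4 tested and 0 called, the sums were 8.17 to 15.2 and 6.82 to 16.7 CPM, with Adgre1 at 0 in these 6 libraries. For 7 endothelial markers, 3 tested and 0 called, they were 12.4 to 15.3 and 12.8 to 15.7 CPM, with Cdh5 at 0. Fibroblast markers summed to 3593 to 7089 CPM in libraries 4 to 6 and 3823 to 6235 in 7 to 9; of 5 tested 3 were lower, Pdgfra, Pdgfrb and Col3a1, while the stromal markers Dcn, Lum, Dpt, Pdpn and Thy1 reached at most 0.443 CPM (Dcn, library 7). Mammary epithelial markers summed to 259 to 559.8 and 265 to 834 CPM, with 2 of 7 higher and 2 lower (1, 2 and 1 and 2, 3 and 1 without each pair in turn). The basal keratin Krt5, the progesterone receptor Pgr and the milk protein genes Csn2 and Wap had 0 counts in libraries 4 to 9, and Krt5 had 1 count in library 2. The 13 mitochondrially encoded genes had 0 calls, although 6 were called lower without libraries 6 and 9 and 3 higher without libraries 5 and 8, and their pair medians were -0.28, -0.26 and 0.33. The part of these levels in the results above was not tested.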

How the data were processed

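The values are gene-level expected counts that the authors estimated with RSEM from poly(A) RNA of 9 libraries and deposited as whole numbers, without normalisation. Tools listed without their roles in the submitters' processing notes are STAR 2.7.8a, RSEM 1.3.3, cutadapt 2.3, FastQC 0.11.8 and MultiQC, with the mouse build GRCm38. Neither annotation release nor strand setting is given there, so a gene and an overlapping antisense partner cannot be told apart. RSEM divides reads that fit several genes, which makes near-identical copies uncertain. All count columns matched a sample title. The table had 55492 rows, of which 5 reporter rows held 0 counts and were left out.

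Libraries 4 to 9 were scaled by TMM and fitted with edgeR 4.0.16 (R 4.3.3) after its filter on low counts (minimum count 10, total 15), by the quasi-likelihood test with pair as a block. Same-position libraries deviated together (correlations 0.64, 0.82 and 0.60, the other combinations -0.61 to 0.21), so the numbers were taken to pair the libraries. Libraries 5 and 8 stood apart on the first principal component. Among the other libraries, the correlations were 0.64 and 0.60 within positions and 0.21 (6 and 7) and 0.19 (4 and 9) across them. Correlated deviations cannot tell whether position marks a replicate or a sorted kind of cell, and this was not tested. A precision of 1 CPM rests on the totals given above. Tested on simulated data for this comparison (13882 genes), the fit recovered 66.0% of genes changed by log2 0.5, 84.0% by 1, 93.9% by 2 and 100% by 3. Of 13683 unchanged genes 14 were called. The simulated counts were drawn from the paired model itself, with the spread of these libraries, so the recovery does not bear on whether the pairing is right. Alternatives were DESeq2 1.42.0, other scalings and filters, all 9 libraries in the fit, no block, and each pair left out; DESeq2 without the block was added after the data were seen.

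Of 857 symbols in 38 gene lists, 853 were found, 15 by a synonym. The sets, pairs and lists were chosen with earlier results of these data known. Named genes were the 12 largest rises and falls among called genes that averaged 5 CPM or more and kept 1 direction in all 3 pairs (predicted genes and pseudogenes left out), the 3 called members with the smallest p of each list, or its member with the smallest p where 0 were called, and a fixed set of markers. Genes named beyond this rule (Cdk1, Bub3, Spc25, Cdc25c, Rrm2, Hist1h2ap, Cdkn3, Fth1, Car9, Vegfa, Col1a1, Col1a2, Timp1, Itgb4, Ccl5 and the complement genes) were picked with their values in view.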

Additional observations from a re-analysis of the deposited data

How the results depend on the processing

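The pairing mattered most. Without the replicate block edgeR called 0 genes higher and 0 lower (183 and 312 at an unadjusted p under 0.05), and DESeq2 without the block, an alternative chosen after seeing the data, called 12 and 44. Requiring at least 2-fold left 64 higher and 122 lower, and testing without a filter on low counts gave 1136 higher and 1082 lower. Leaving out 1 pair at a time gave 443 to 657 genes higher and 506 to 739 lower; the smallest counts were without libraries 4 and 7, where 385 of the 724 genes called higher kept the call. DESeq2 with the block called 610 higher and 548 lower, and all 9 libraries in the fit gave 535 and 540. Other scalings and a stricter filter on level gave 621 to 757 higher and 678 to 705 lower. Of the 115 called genes that the naming rule took, 84 kept the call in all 9 settings with the block and 31 lost it in 1 or more. Among the genes named beyond that rule, Cdkn3, Hist1h2ap and Fth1 lost theirs. Signs changed only for uncalled genes near 0. Myc had log2 -0.033 without the block (-0.022 in DESeq2), -0.00049 at a mean of at least 5 CPM and -0.092 to 0.087 when 1 pair was left out, below 0 without libraries 5 and 8. Bach1 had 0.00069 with DESeq2 size factors, 0.00052 in DESeq2 and -0.053 to 0.028 when 1 pair was left out, below 0 without libraries 4 and 7. Abcg2 had 0.061 without the block (0.077 in DESeq2) and -0.20 to 0.12 when 1 pair was left out, above 0 without libraries 5 and 8. The cause of these changes was not tested.

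The limits are those of the labels. No label ties a library to a sorted kind of cell, and library 9 has less than the depth of the other 5. The pairs rest on position and on the correlation of deviations. That correlation would also arise if position marked the sorted kind. Small differences in genes with few counts were not detectable at this depth.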

Other observations

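Complement genes, a list chosen after C4b, C4a and others had been seen among the largest falls, were lower more often than higher. Of 35 listed, 16 were high enough to test, of which 12 were lower and 0 higher (5.26% and 5.15% of all genes tested). The median log2 fold change was -0.76, with pair medians of -0.89, -0.63 and -0.54. Since these same data prompted the list, its counts are no separate support for the falls above. The number lower was 10, 12 and 11 without libraries 4 and 7, 5 and 8, and 6 and 9 in turn. C3, the component on which all 3 activation routes converge, had 109, 114 and 124 CPM in libraries 4, 5 and 6 and 23.4, 41.1 and 37.7 CPM in libraries 7, 8 and 9. The sets did not overlap, and edgeR's log2 fold change was -1.80 ± 0.11 (SE, adjusted p = 1.17e-05). The protease genes C1s1 (log2 -1.64) and C1ra (log2 -0.69) of the classical route and Cfd (log2 -1.42) and Cfb (log2 -0.83) of the alternative route were lower as well. C1s1 and C1s2, and C1ra and C1rb, are close copies whose reads may be split. The members tested and not called were Hc, Cfp, Cd46 and Cd59a, and C1qb, C1qc, C6 and C7 had 0 counts.

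Apart from the fit of all 9 libraries, libraries 1 to 3 entered no comparison here. On a scale shared by all 9 libraries, C3 stood at 237, 173 and 309 CPM in libraries 1, 2 and 3, 109, 115 and 123 in 4, 5 and 6, and 23.4, 41.4 and 37.6 in 7, 8 and 9. Mme stood at 485, 380.2 and 328 CPM in libraries 1, 2 and 3, 215, 202 and 118 in 4, 5 and 6, and 37.9, 55.3 and 27.8 in 7, 8 and 9, and Hepacam2 at 0.207, 0.8003 and 1.25 CPM in libraries 1, 2 and 3, 2.23, 3.65 and 5.47 in 4, 5 and 6, and 9.05, 15.96 and 18.98 in 7, 8 and 9. Mki67 stood at 5.599, 63.3 and 4.99 CPM in libraries 1, 2 and 3, 9.73, 107 and 9.17 in 4, 5 and 6, and 27.9, 151 and 23.9 in 7, 8 and 9.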
